A study of Mus musculus with 4 samples.

Results

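Sox9, Sox5 and Sox6 encode the Sox trio, the transcription factors that set and hold the chondrocyte fate, and Acan, Comp, Matn1, Col2a1, Col9a1, Col11a2 and Col10a1 encode proteins of the cartilage matrix. CpG methylation of these 10 genes was followed in C3H10T1/2 cells, a mouse embryonic line with features of mesenchymal stem cells (MSCs), by bisulfite sequencing. The genes were chosen by name and found through their Ensembl identifiers in the GENCODE vM21 annotation, among 28883 genes with a level in any library. The regions described are the promoter, 5′ UTR, exons, introns and 3′ UTR of each gene, each class given as 1 value per gene, and every CpG island or island shore (the flank of an island) that overlaps the gene. Of 72 such regions listed in any library, 70 had a level in all 4 libraries, out of 106689 regions of the same classes in all. These comprised 38 gene regions (9 of them promoters), 13 islands and 19 shores. Many of these regions overlap, so they are not independent of each other.

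All cells were grown in Modified Eagle's Medium with serum, and were transfected for 48 h with a control siRNA (NC) or with siRNA against DNMT1 (siDNMT1). They were then left uninduced, or kept for 3 days in medium for osteoblast (OB) differentiation, which added dexamethasone, β-glycerophosphate, L-ascorbic acid and penicillin-streptomycin. Each of the 4 combinations (NC, siDNMT1, NC OB and siDNMT1 OB) was 1 library, so no difference below has a replicate check and no p-value was computed. The values are methylation levels, the fraction of CpG cytosines read as methylated, from 0 to 1, and they come without read counts, so the depth behind a level is unknown. The degree of DNMT1 knockdown and the identity of the cells cannot be read from methylation levels, and RNA was not analysed here. The study names the method as reduced representation bisulfite sequencing, whereas its protocol describes sonication and no restriction enzyme. The libraries list between 155398 and 159705 regions of all classes, the fewest in siDNMT1 OB, which also has the lowest median level over all 106689 regions, 0.233, against 0.261, 0.258 and 0.245 in NC, siDNMT1 and NC OB.

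Sox9 is the master regulator of chondrogenesis, and Sox5 and Sox6, which lack a transactivation domain of their own, act with it on the enhancers of cartilage genes. Collagen II, a product of Col2a1, forms the main fibril of cartilage together with collagens XI and IX, and aggrecan (Acan) is the large proteoglycan that holds water between the fibrils. DNMT1 is the maintenance methyltransferase, which keeps methylation patterns through cell division, and CpG islands at gene starts are mostly free of methylation in somatic cells, whether or not the gene is active.

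The sequences below, read from GRCm38 (the assembly of mm10) along each gene's strand with every CG in capitals, show how different the levels of CpG-rich stretches of these genes were. The first 2 lie at gene starts. The 140 bases upstream of the RefSeq start of Comp, at chr8:70373408-70373547 on the plus strand, hold 16 CG, and the island they belong to had a mean level of 0.906 over the 4 libraries. The 250 bases upstream of a RefSeq start of Acan, at chr7:79052976-79053225 on the plus strand, hold 26 CG, and 9.59% of all RefSeq promoter windows hold as many or more. Their island had a mean level of 0.111.
Comp, start island upstream of the RefSeq start: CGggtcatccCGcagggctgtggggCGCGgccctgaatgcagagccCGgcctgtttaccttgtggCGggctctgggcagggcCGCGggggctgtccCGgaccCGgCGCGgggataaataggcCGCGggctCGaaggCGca
Acan, upstream of the RefSeq start: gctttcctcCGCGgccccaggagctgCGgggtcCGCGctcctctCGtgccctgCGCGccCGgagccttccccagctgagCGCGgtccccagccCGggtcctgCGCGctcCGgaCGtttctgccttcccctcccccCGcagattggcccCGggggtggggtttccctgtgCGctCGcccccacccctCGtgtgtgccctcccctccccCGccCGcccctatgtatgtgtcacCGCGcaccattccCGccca

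The start island of Col2a1 and an island in its first intron show the same contrast within 1 gene. The 169 bases upstream of the RefSeq start of Col2a1, at chr15:98004725-98004893 on the minus strand, hold 14 CG and belong to an island with a mean level of 0.518. The first 300 bases of the intronic island, at chr15:98002023-98002322 on the minus strand, hold 24 CG, and that island had a mean level of 0.0306.
Col2a1, start island upstream of the RefSeq start: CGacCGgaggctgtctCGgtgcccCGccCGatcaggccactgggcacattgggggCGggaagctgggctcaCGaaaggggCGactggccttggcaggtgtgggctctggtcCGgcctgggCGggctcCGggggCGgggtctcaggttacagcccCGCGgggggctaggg
Col2a1, intronic island: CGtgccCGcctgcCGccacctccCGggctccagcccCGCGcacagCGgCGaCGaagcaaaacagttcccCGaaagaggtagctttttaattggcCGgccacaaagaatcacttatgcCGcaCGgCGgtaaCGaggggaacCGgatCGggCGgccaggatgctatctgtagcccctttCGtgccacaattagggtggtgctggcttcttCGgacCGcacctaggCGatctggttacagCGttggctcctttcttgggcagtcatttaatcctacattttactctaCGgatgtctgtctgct

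Of the Sox9 islands, the one upstream of the gene and the one over the second coding exon are shown, and between them lies an island over the first exon with a mean level of 0.0183. The central 300 bases of the upstream island, at chr11:112781446-112781745 on the plus strand, hold 17 CG, and that island, which lies within 2 kb of the start but outside the gene, had a mean level of 0.137. The island over the second coding exon, at chr11:112783818-112784076 on the plus strand, holds 22 CG in 259 bases and had a mean level of 0.385.
Sox9, upstream island: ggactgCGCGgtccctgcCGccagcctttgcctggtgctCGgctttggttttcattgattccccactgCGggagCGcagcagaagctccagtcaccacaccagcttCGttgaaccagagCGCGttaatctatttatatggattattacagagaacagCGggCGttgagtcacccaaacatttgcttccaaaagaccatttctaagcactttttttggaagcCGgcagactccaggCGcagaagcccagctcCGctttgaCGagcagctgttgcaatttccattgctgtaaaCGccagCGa
Sox9, coding exon island: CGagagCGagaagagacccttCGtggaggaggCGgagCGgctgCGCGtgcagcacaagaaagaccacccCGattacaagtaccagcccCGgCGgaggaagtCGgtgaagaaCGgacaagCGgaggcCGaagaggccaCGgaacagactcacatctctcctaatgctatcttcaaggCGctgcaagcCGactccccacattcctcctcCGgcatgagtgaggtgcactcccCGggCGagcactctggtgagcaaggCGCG

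The Matn1 promoter was 1 of the regions with the widest spread over the libraries. Its CpG number is near the middle of all promoters, with 39 CpG in the 2 kb upstream, where 51.7% of promoters have fewer. The 250 bases upstream of its RefSeq start, at chr4:130944135-130944384 on the plus strand, hold 4 CG, and 62.2% of all RefSeq promoter windows hold as many or more.
Matn1, upstream of the RefSeq start: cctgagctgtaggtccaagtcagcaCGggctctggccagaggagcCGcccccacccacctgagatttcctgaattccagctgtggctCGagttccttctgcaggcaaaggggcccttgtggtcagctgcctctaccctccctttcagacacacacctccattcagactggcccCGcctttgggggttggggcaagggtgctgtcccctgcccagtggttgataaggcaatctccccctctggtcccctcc

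Promoter levels of the chondrocyte genes covered most of the scale. Sox9 (chr11:112782224-112787760) had the lowest promoter level, at 0.112 in NC, 0.126 in siDNMT1, 0.0939 in NC OB and 0.088 in siDNMT1 OB. Acan (chr7:79053483-79115099) followed, at 0.131, 0.120, 0.0943 and 0.0974 in the same order of libraries. The mean levels of Sox9 and Acan, 0.105 and 0.111, differ by less than either promoter varied over the libraries (0.0378 and 0.037), so they cannot be put in order. Sox6 (chr7:115470872-116038796) came next, at 0.272, 0.248, 0.232 and 0.235.

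The promoters of Col9a1, Matn1 and Col2a1 formed a middle group in which Col9a1 and Matn1, and Matn1 and Col2a1, lay within each other's spread. Col9a1 (chr1:24177610-24252684), which encodes a chain of the collagen that coats type II fibrils, had levels of 0.337, 0.333, 0.351 and 0.323. Matn1 (chr4:130944385-130955475), which encodes the matrix adaptor matrilin 1, had levels of 0.335, 0.376, 0.375 and 0.274, and the siDNMT1 OB library stood below the other 3. Col2a1 (chr15:97975602-98004695) had levels of 0.369, 0.383, 0.345 and 0.364.

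The remaining promoters had mean levels above 0.5. The promoter of the gene Sox5 (chr6:143828425-144781977) was at 0.527, 0.591, 0.556 and 0.533. That of Col11a2 (chr17:34039437-34066685), which encodes a chain of collagen XI, was at 0.674, 0.681, 0.670 and 0.645. Comp (chr8:70373558-70382066), the gene of cartilage oligomeric matrix protein, had the highest promoter level, at 0.801, 0.803, 0.782 and 0.757, above that of 95.9% of all promoters, while the Sox9 promoter exceeded 42.5% of them. The gaps from Sox6 to its neighbours, and those between Sox5, Col11a2 and Comp, were wider than the range of any of these promoters over the 4 libraries. The median promoter over all genes had a level of 0.191 in NC and 0.164 in siDNMT1 OB. Col10a1 (chr10:34389981-34397085), the collagen gene of hypertrophic chondrocytes, had no promoter level in any library. Its single listed region, the exons, was at 0.735, 0.719, 0.754 and 0.736, and this gene lies within Nt5dc1, which runs on the other strand.

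**Figure D1:**
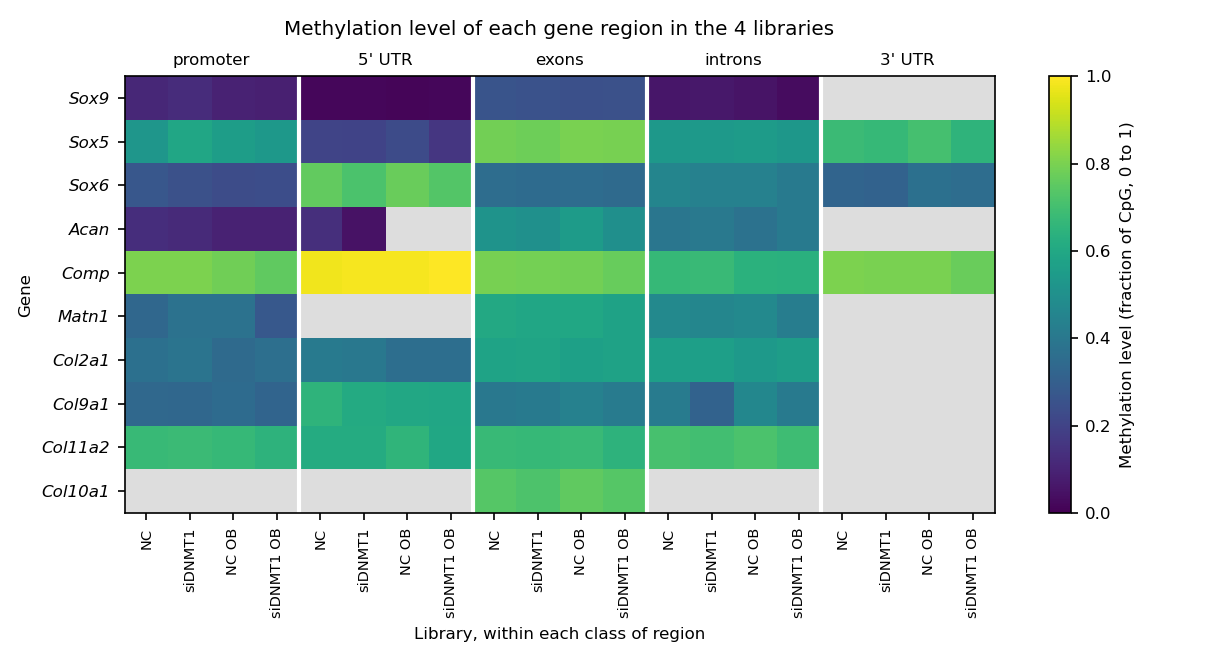
Methylation level (colour, 0 to 1) of each class of region (column blocks) for the 10 genes (rows) in the 4 libraries (columns within a block), with grey where no level was listed. Differences between genes and classes, from 0.0162 in the Sox9 5′ UTR to 0.988 in the Comp 5′ UTR, are far wider than those between libraries within a block. The Comp 5′ UTR is short, and its level may rest on very few cytosines.

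The 5′ UTR, given as 1 value per gene, differed even more between genes. In genes with several starts, such as Sox6 and Sox5 (8 and 7 coding starts in GENCODE), it need not lie at the first transcribed bases. In Sox9 it was almost unmethylated, at 0.0171, 0.0161, 0.0131 and 0.0186. In Comp it was almost fully methylated, at 0.979, 0.986, 0.986 and 1. This was among the highest of all 5′ UTRs (a percentile that rounds to 100), whose median was 0.0286 in NC. The levels of Sox6, between 0.716 and 0.772, of Col9a1, between 0.590 and 0.649, and of Col11a2, between 0.596 and 0.654, were also, on average, above those of 94.2% of all 5′ UTRs, whereas Col2a1 was at 0.409, 0.4, 0.362 and 0.363 and Sox5 at 0.205, 0.202, 0.230 and 0.16. In Acan the 5′ UTR was listed in the uninduced libraries only, at 0.133 in NC and 0.0476 in siDNMT1, as was a shore at 0.0750 and 0.0702, and neither enters the comparisons below.

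Exons lay higher than promoters in most of these genes, as they did over all genes, where the medians in NC were 0.361 and 0.191. Exon levels had means of 0.251 in Sox9, 0.351 in Sox6, 0.416 in Col9a1, 0.514 in Acan, 0.577 in Col2a1, 0.590 in Matn1, 0.668 in Col11a2, 0.736 in Col10a1, 0.785 in Comp and 0.790 in Sox5. The exons exceeded the promoter by more than the range of either over the libraries in 7 of the 9 genes with both, and in Col11a2 and Comp the 2 differed by less than these ranges. Introns spanned from 0.0530 in Sox9 to 0.704 in Col11a2. Their mean was below that of the promoter in Sox9 (0.105), in Comp (0.655 against 0.786) and, by less than the promoter's range, in Sox5 (0.536 against 0.552). It was above that of the promoter in the other genes with both. In Col9a1 these means, 0.4 and 0.336, differed by less than the range of the introns, 0.148. The Col9a1 introns lay below the promoter in siDNMT1, at 0.313 against 0.333. The 3′ UTR was listed for 3 genes, at means of 0.341 in Sox6, 0.676 in Sox5 and 0.792 in Comp.

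Islands resolved these averages along the genes. In Sox9 the island over the first exon, 95 to 930 bp past the start, had levels of 0.0209, 0.0198, 0.0150 and 0.0175. The island over the second coding exon had levels of 0.394, 0.4, 0.391 and 0.354, and the one over the last coding exon, 2276 to 3241 bp past the start, had levels of 0.801, 0.837, 0.805 and 0.771. In each library the level was higher from 1 of these islands to the next along the gene, and the low exon average of Sox9 spans these extremes. A shore of Sox9 that covers the last island carried the same levels within 0.001 in every library, as did a second pair of Sox9 shores, and the Acan promoter and its start island. Whether these rows rest on the same cytosines was not tested.

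Sox5 showed the same contrast between its ends. The island at its start was at 0.0482, 0.0461, 0.0440 and 0.0363, and an island near its 3′ end, over a coding exon and intron, was at 0.839, 0.840, 0.858 and 0.849. The Sox5 start island was thus nearly unmethylated while the promoter class of the gene had a mean level of 0.552, and a shore that lies entirely upstream of the start had a mean level of 0.583. In Sox6 the 2 islands, both intronic, were intermediate, at 0.188, 0.178, 0.145 and 0.139 for the one nearer the start and at 0.351, 0.324, 0.303 and 0.303 for the other. Both were lower in the OB libraries than in either uninduced library.

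Among matrix genes, Col2a1 and Comp had methylated start islands. The first intron of Col2a1 is known for a chondrocyte enhancer that Sox9 binds, and the island in it, 2373 to 2804 bp past the start, had levels of 0.0319, 0.0435, 0.0259 and 0.0209. The start island of Col2a1 was at 0.536, 0.536, 0.513 and 0.488, above 85.6% of all islands. In Comp the start island was at 0.915, 0.920, 0.912 and 0.877, above 99.3% of all islands, and its 2 other islands, within the gene, had means of 0.703 and 0.719. The median over all 14095 islands was 0.0323 in NC. Acan, whose island covers its start, was at 0.131, 0.120, 0.0943 and 0.0974.

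**Figure D2:**
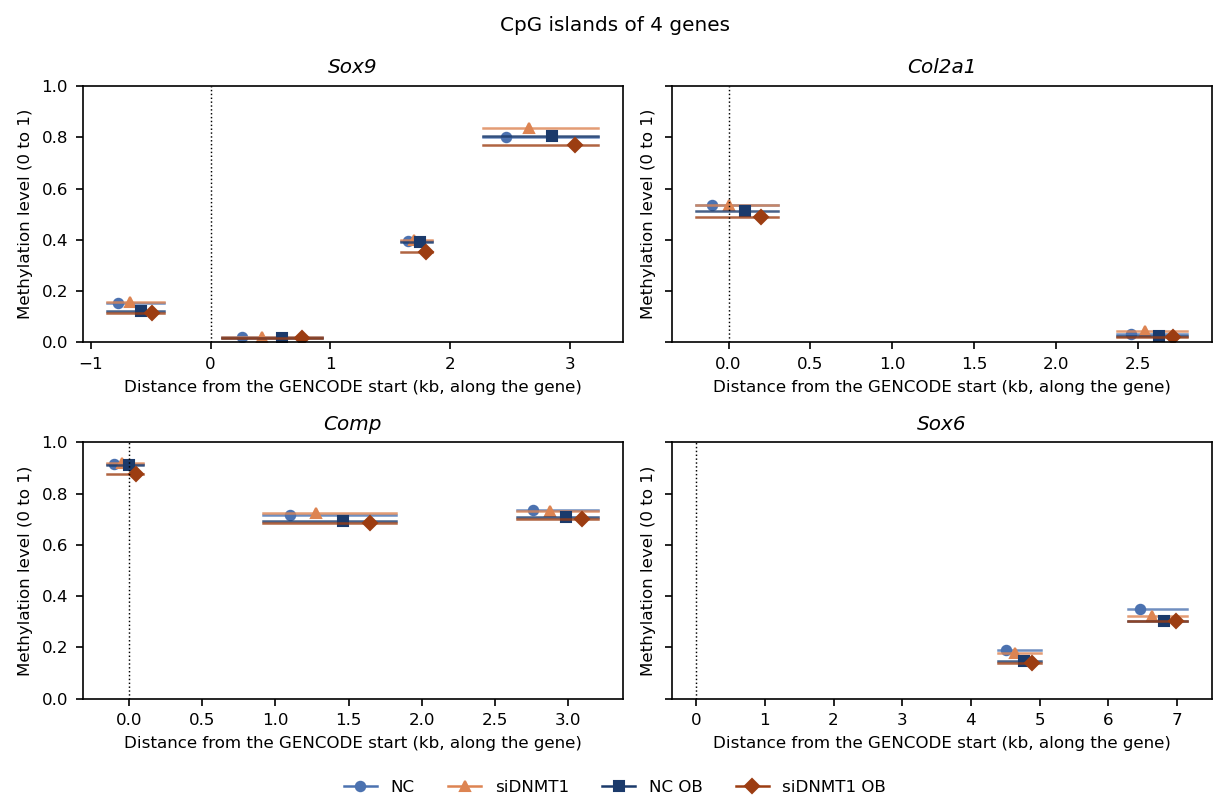
Methylation level (vertical axis, 0 to 1) of the CpG islands of Sox9, Col2a1, Comp and Sox6 against distance from the GENCODE start (kb, along the gene). Each horizontal line spans an island in 1 library and the symbol on it marks the library. Sox9 islands within the gene go from 0.0183 over the first exon to 0.803 in the last coding exon, whereas the Col2a1 start island (0.518) lies above its intronic island (0.0306).

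CpG number accompanied the promoter levels in part. The 2 kb upstream of the GENCODE start held 92 CpG in Sox9, 89 in Acan, 77 in Sox6, 73 in Sox5, 54 in Col11a2, 50 in Col2a1, 39 in Matn1, 33 in Col9a1 and 32 in Comp. Over these 9 promoters Pearson's r between CpG number and mean level was -0.621 and Spearman's rho -0.683, against -0.288 and -0.338 over 20128 promoters of all genes. For 6 of the genes there were RefSeq windows of 250 bases, and the count used was the most in any window of the gene. Such windows need not lie at the promoter: that of Sox5 (chr6:143947107-143947356) and the one used for Sox6 (chr7:116031048-116031297) lie inside the gene. Over these 6 genes the window counts, which were the main setting, gave an r of -0.382 and a rho of -0.257. This rho is smaller in size than the -0.338 over all promoters, which counts the 2 kb. All these values are descriptions, since promoters share libraries and base composition. For islands, CpG content did not order the levels: the Sox9 island over the first exon and the Comp start island hold 9.69 and 9.64 CpG per 100 bases and had mean levels of 0.0183 and 0.906.

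The start used for a promoter matters to these counts. The RefSeq gene start is not the start of every window above. It differs from the GENCODE start by 1980 bp for Sox6, 518 for Col11a2, 310 for Sox5 and 257 for Acan, and by at most 29 for the other genes. The 2 kb upstream of Col11a2 also overlaps Rxrb, that of Sox6 overlaps 1110004F10Rik, that of Sox9 BC006965 and that of Acan Gm26633. Promoter coordinates were not used here, since the levels are listed by gene identifier only.

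**Figure D3:**
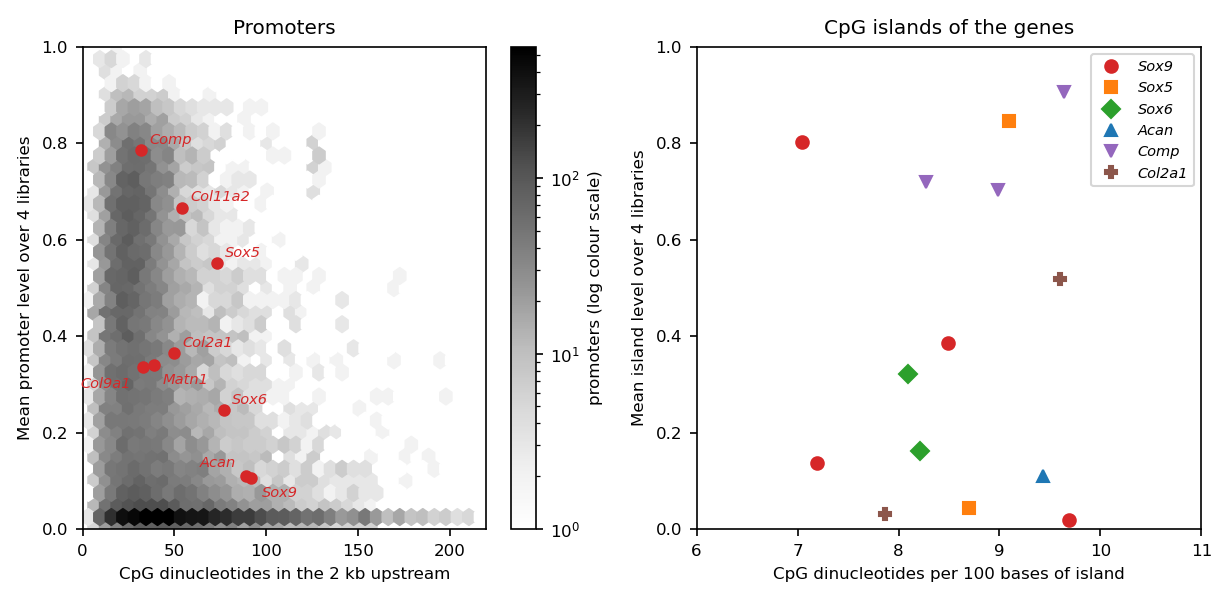
Left, mean promoter level over the 4 libraries against the number of CpG in the 2 kb upstream, for all genes (grey hexagons, log colour scale) and for the 9 chondrocyte genes (red points). Right, mean level of each island against its CpG per 100 bases, including the Sox9 island upstream of the gene. On the left, Acan and Sox9 (89 and 92 CpG) lie lowest and Comp (32 CpG) highest, and on the right islands of like CpG content lie at both ends of the scale.

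DNMT1 depletion in uninduced cells was compared first, as the difference siDNMT1 minus NC in each region, with a difference of at least 0.1 in either direction counted as a change. Of the 38 gene regions, 1 changed, the introns of Col9a1, which were at 0.415 in NC and 0.313 in siDNMT1, a difference of -0.102. Over all genes, 1.54% of gene regions changed that much, and 1.34% of introns. None of the 32 islands and shores of the chondrocyte genes changed, against 1.25% of all islands and shores. The OB libraries had Col9a1 intron levels of 0.461 and 0.410, so the siDNMT1 library alone lay below 0.4. The next largest differences, both short of the threshold, were those of the Sox5 promoter, 0.0638 higher in siDNMT1, and a Sox6 shore, at -0.0531.

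The Sox trio and matrix genes otherwise kept close to their NC levels. Over all 70 regions the median difference was -0.0034, with 44 lower and 26 higher in siDNMT1, against a median of -0.00115 over all 106689 regions, of which 54.6% were lower. Without Sox5 and Sox6 the median was -0.000977. Of the 9 promoters, 3 were lower and 6 higher, with a median of 0.00672. The promoters of Sox9 and Sox6 differed by 0.0142 and -0.0244, and 34.4% and 19.8% of all promoters differed by as much or more. All 11 regions of Sox6 were lower in siDNMT1, by a median of -0.0244 and within a range of -0.0531 to -0.0048, whereas 6 of 13 Sox9 regions and 6 of 9 Sox5 regions were. The Sox6 regions overlap, and no test of this direction was possible.

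After OB induction the differences were larger and mostly downward. The change counted was that of the Matn1 promoter, from 0.375 in NC OB to 0.274 in siDNMT1 OB, a difference of -0.101, which makes 1 of 38 gene regions against 2.16% over all genes and 2.20% of all promoters. None of the 32 islands and shores changed, against 1.72% of all. Below the threshold, the 5′ UTR of Sox5 differed by -0.0697, that of Col11a2 by -0.0583, the 3′ UTR of Sox5 by -0.0546 and the introns of Col9a1 by -0.0513. The largest upward difference was that of the Acan introns, at 0.033.

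The downward shift of the chondrocyte genes in OB cells went with a shift of the whole library. Over the 70 regions the median difference was -0.0123, with 56 lower and 14 higher, against -0.00511 over all regions, of which 65.7% were lower. With each library centred on its class medians, the median over the 70 regions was -0.00494. Gene regions with a mean level of at least 0.5 had a median of -0.0212 in these genes (17 of 20 lower) and of -0.0204 over all genes (81.8% lower). Those under 0.5 had medians of -0.0102 and -0.00223. The sets under 0.5 were not alike in level, with median levels in NC OB of 0.353 in these genes and 0.0939 over all genes. All 9 regions of Sox5 and 12 of 13 of Comp were lower in siDNMT1 OB, as were 10 of 13 of Sox9 and 8 of 11 of Sox6. Col2a1 was split, with 4 of 8 regions lower. The promoters of Sox9 and Sox6 differed by -0.00582 and 0.00265, sizes that 62.3% and 78.1% of all promoters reached.

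**Figure D4:**
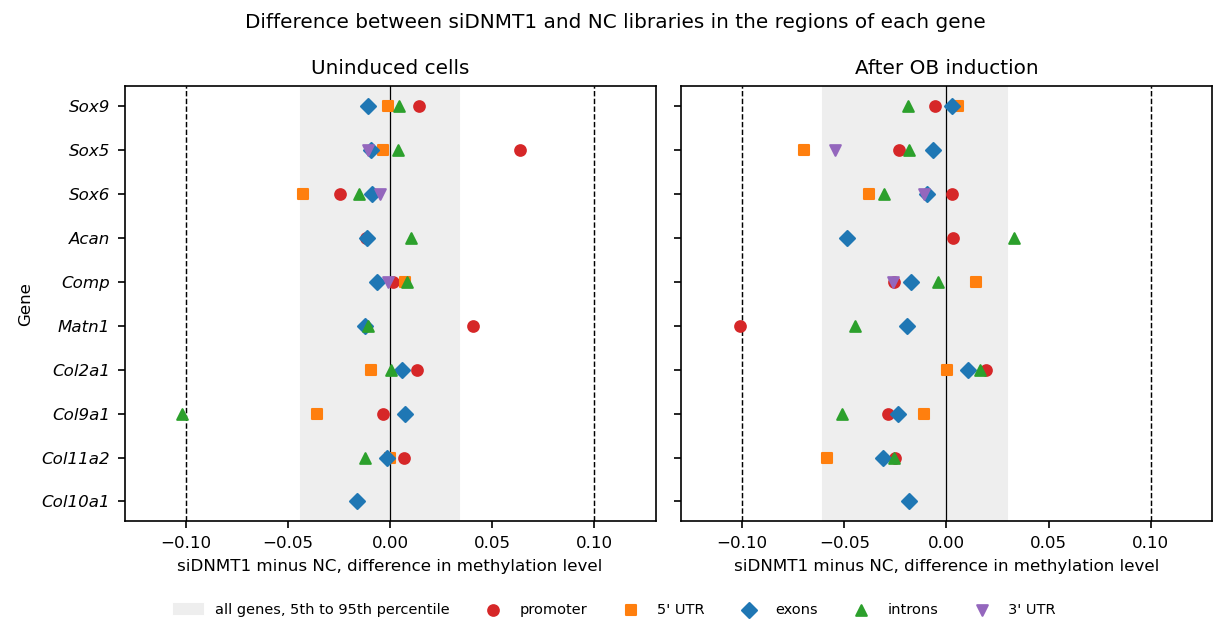
Difference in methylation level, siDNMT1 minus NC (horizontal axis), in the regions of each gene (rows, symbols by class), in uninduced cells (left) and after OB induction (right). Dashed lines mark the threshold of 0.1 and the grey band the 5th to 95th percentile of all gene regions, from -0.0435 to 0.0339 on the left and from -0.0602 to 0.0298 on the right. The Col9a1 introns (left) and the Matn1 promoter (right) lie just past a dashed line.

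The siDNMT1 differences before and after induction come from separate pairs of libraries. Of the 38 gene regions, 19 were lower in both, 5 higher in both, 9 higher in uninduced and lower in OB cells, and 5 the reverse, and over all 76155 gene regions the counts were 30323, 12839, 20520 and 12140. The widest gap was at the Matn1 promoter, 0.0407 higher in uninduced cells and lower in OB cells as given above. The Sox5 promoter went from 0.0638 to -0.0232. With 1 library per condition the gap between the 2 differences could not be tested.

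OB induction was read within each siRNA. No time after the 48 h is listed for the uninduced cells, so induction cannot be told apart from time in culture after transfection. In NC cells no region of the chondrocyte genes changed by 0.1, against 2.15% of gene regions and 2.09% of islands and shores in all. The median over the 70 regions was -0.00702 (all regions -0.00363), and it turned to 0.00151 with each library centred on its class medians. The share of all regions lower in NC OB was 63.4%. In the chondrocyte genes, the largest differences were those of 2 overlapping Sox6 shores, -0.0672 and -0.0622, and of the shore across the Comp start, -0.0587. All 8 regions of Col2a1 were lower in NC OB than in NC, from -0.0473 in the 5′ UTR to -0.00604 in the intronic island, and 12 of 13 of Comp were. In Sox5, 8 of 9 regions were higher, with a median of 0.0185.

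In siDNMT1 cells the Matn1 promoter was again the region that changed, from 0.376 to 0.274 (-0.101), 1 of 38 gene regions against 3.40% over all genes and 3.37% of promoters. This comparison and the one between siRNAs in OB cells share the siDNMT1 OB library, and the Matn1 promoter lay between 0.335 and 0.376 in the other 3 libraries. No island or shore changed, against 2.99% of all. The introns of Col9a1 were 0.0968 higher, a comparison that holds the low siDNMT1 uninduced value. All 9 promoters were lower after induction, from -0.101 in Matn1 to -0.0109 in Col9a1, where 73.1% of all promoters were lower. The median over the 70 regions was -0.0219 (all regions -0.00808), or -0.00382 with each library centred on its class medians. All 8 Col2a1 regions and 12 of 13 Comp regions, many of which overlap, were lower here too, where 73.4% of all regions were. The shore across the Comp start was at 0.804, 0.767, 0.745 and 0.704.

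The 3 changes, of -0.102, -0.101 and -0.101, lie just past the threshold, and they rest on 2 levels, 0.313 in the Col9a1 introns and 0.274 in the Matn1 promoter. None of the 3 was kept once each library was centred on the median of its class. How many cytosines stand behind either level is unknown, and the part of depth, of differences between cultures or of the lower level of the siDNMT1 OB library in these values was not tested.

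A wider set of cartilage genes was read for comparison. It held 6 Sox paralogs, 15 other matrix genes (among them Col9a2, Col11a1, Hapln1 and Chad) and 12 regulators (among them Runx2, Runx3, Ihh and Fgfr3), and 30 of these 33 genes had a level in all libraries. None of their 111 regions (26, 35 and 50) changed by 0.1 between siDNMT1 and NC in uninduced or in OB cells, the background being the 1.54% and 2.16% given above. The median difference in OB cells was -0.0038 for the Sox paralogs, -0.0186 for the matrix genes and -0.00557 for the regulators. Over all gene regions it was -0.00619. Of the matrix gene regions 29 of 35 were lower, against 66.8% of all gene regions. The 38 gene regions of the chondrocyte genes had a median of -0.0186 in the same comparison. The lists differed in level. In NC OB the median level was 0.518 in the matrix genes and 0.544 in the chondrocyte genes. It was 0.361 in the Sox paralogs, 0.25 in the regulators and 0.294 over all gene regions. All gene regions with a mean level of at least 0.5 had a median difference of -0.0204. The part of the level in these medians was not tested.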

How the data were processed

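Reduced representation bisulfite sequencing of C3H10T1/2 MSCs gave 4 libraries, 1 per condition, grouped by the labels. The submitters' processing notes name CASAVA, Trimmomatic (version 0.36), Bismark (version 0.16.3) and mm10. The authors deposited 1 fraction of methylated CpG per region and library, and promoters are defined in the methods as 2 kb upstream of the start. The coverage minimum, the weighting of cytosines and the annotation version are not given in the sources used here. No counts were used, so depth and precision per region are unknown, and no interval is given.

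Regions were matched to genes by identifier, or by overlap with the gene in GENCODE vM21. Differences were taken where all 4 libraries gave a level, and a change was counted from 0.1. Positions are counted from 1, and 14 of 14 islands start and end with CG on GRCm38. Sequences came from that genome and from RefSeq promoter windows, which Sox9, Comp and Col2a1 lack. All 10 genes are described in every class. Values of other cartilage genes were to be given where a siDNMT1 difference reached 0.1, which none did, and 5 of their regions are given in the closing section. The members and lists were chosen with earlier results of these data known. Scripts were tested on simulated data. Alternatives covered the threshold, centring, the regions included and the libraries required. Python 3.11.15, pandas 2.3.3, numpy 2.4.6 and pysam 0.24.0 were used.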

Additional observations from a re-analysis of the deposited data

How the results depend on the processing

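With 1 library per condition, no library could be left out. No paired analysis was possible because each condition has 1 library and no test was made. At a threshold of 0.05 the chondrocyte genes held 3 changed regions between siDNMT1 and NC in uninduced cells, 5 in OB cells, 3 between OB and uninduced NC cells and 6 between OB and uninduced siDNMT1 cells, or 4.29%, 7.14%, 4.29% and 8.57% of 70, against 6.17%, 9.43%, 10.3% and 14.6% of all regions. At 0.2 the counts were 0 in every comparison. When each library was centred on its class medians, the counts between siRNAs were 0 in uninduced and 0 in OB cells, and the 1 change with induction of siDNMT1 cells became an increase of the Col9a1 introns in place of the decrease of the Matn1 promoter. Centring moved the median difference in OB cells from -0.0123 to -0.00494 and that of induction in siDNMT1 cells from -0.0219 to -0.00382, and it turned that of induction in NC cells from -0.00702 to 0.00151. Including islands and shores up to 2 kb upstream, requiring levels only in the 2 libraries compared, leaving out Sox5 and Sox6, using gene regions alone, and counting regions with the same levels within 0.001 once (chosen after seeing the data) kept every count and every sign of the medians. Of these medians, that between siRNAs in uninduced cells moved from -0.0034 to -0.000977 without Sox5 and Sox6, and with gene regions alone that of induction in NC cells moved to -0.00347 and that between siRNAs in OB cells to -0.0186. The promoter order kept 7, 7, 6 and 7 of 9 places in NC, siDNMT1, NC OB and siDNMT1 OB. Spearman's rho between CpG number and promoter level was -0.257 in the main setting, with the most CpG in any RefSeq window of a gene (6 genes). It was -0.683 over the 2 kb upstream (9 genes).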

Other observations

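With OB induction, 3 regions of the wider cartilage set, chosen here after their values were seen, differed by at least 0.1, of 111 regions compared. These were 2 regions in NC cells, where 2.15% of all gene regions differed that much, and 1 in siDNMT1 cells, where 3.40% did. The 3′ UTR of Sox11 was at 0.327 in NC and 0.217 in NC OB (-0.111), and at 0.322 and 0.247 in siDNMT1 and siDNMT1 OB. The introns of Hapln1, the gene of a link protein that binds aggrecan to hyaluronan, were at 0.571 in NC and 0.677 in NC OB (0.106), and at 0.6 and 0.579 in the siDNMT1 libraries. The 5′ UTR of Col11a1, which encodes a chain of collagen XI, was at 0.235 in siDNMT1 and 0.120 in siDNMT1 OB (-0.116), and at 0.275 and 0.212 in NC and NC OB. The promoter of Sox4, also chosen after its values were seen, had levels of 0.830, 0.819, 0.836 and 0.793, and that of Runx2, a regulator of osteoblasts and of hypertrophic chondrocytes, had levels of 0.0179, 0.0165, 0.0149 and 0.0162.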
